A study of Mus musculus with 4 samples.

Results

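The genes described here are 48 genes of the lysosome, the acidic compartment in which cells break down what they take up. They comprise 13 proteases, 5 lipid hydrolases, 15 glycosidases and sulfatases, the precursor proteins prosaposin and progranulin, 4 membrane proteins, 6 subunits of the proton pump and 3 transcription factors. The genes were picked by name, and each had 1 row among the 45777 genes of the deposited table. RNA-seq had been carried out on MG5, a mouse microglial cell line labelled WT and grown partly in medium that astrocyte-like A1 cells had conditioned. The 2 libraries called 6OHA replicates 1 and 3 came from cells exposed for 6 h to 10 µM 6OHA, a code name for a retinoid X receptor agonist. The other 2 libraries, control replicates 1 and 2, came from cells labelled untreated, with no statement on solvent. The question was which of these transcripts differ between cells given 6OHA and untreated cells.

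Lysosomal enzymes work in an acidic lumen that the vacuolar proton pump, the V-ATPase, maintains. Cathepsins cut proteins, glycosidases and sulfatases take apart sugar chains, and lipid hydrolases release fatty acids, cholesterol and sphingosine, which the cell then exports or stores. Many of these genes carry the sequence CACGTG, an E-box, near their start sites, where the transcription factors TFEB, TFE3 and MITF can bind. Microglia, the phagocytes of the brain, digest engulfed debris and myelin in this compartment. The retinoid X receptor pairs with receptors that sense sterols and fatty acids, which lysosomal breakdown of lipoproteins and membranes releases.

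Total counts per library ranged from 31057950 to 42541641. Of 14 microglia and macrophage markers, all had a mean of at least 1 TPM, the level per transcript length on a scale with the same sum in every library, and their summed level was 12005 and 13463 TPM in 6OHA against 11807 and 12904 TPM in control. Of these markers Cx3cr1, the fractalkine receptor gene, fell (log2 difference -0.81, adjusted p = 0.00257 by edgeR's quasi-likelihood test), and none rose. Apart from Mbp and Kdr, the markers of other cell types had mean levels below that of Cx3cr1 (16.7 TPM), the lowest of the 14. Of the markers of other cell types Map2 fell in 6OHA (log2 difference -0.76, adjusted p = 0.0273 by the same test). Of 8 astrocyte markers Gfap and Aqp4 had 0 counts in every library and Aldh1l1 was the highest at a mean of 9.99 TPM, with a sum of 10.1 and 10.5 TPM in 6OHA against 15.4 and 15.4 TPM in control. Of 6 neuronal markers Rbfox3, Syt1 and Stmn2 had 0 counts, with a sum of 4.51 and 5.87 against 8.25 and 8.29 TPM. Of 5 oligodendrocyte markers Mog and Olig2 had 0 counts, Mbp reached a mean of 39.6 TPM, and the sum was 47.7 and 49.3 against 43.1 and 41.7 TPM. Of 4 endothelial markers Cldn5 had 0 counts, and the sum was 79.2 and 80.6 against 97.4 and 86.1 TPM. Most of that sum was Kdr, a vascular growth factor receptor gene, whose mean of 80.5 TPM exceeded those of the microglial markers P2ry12 (70.2 TPM), Tmem119 (54.6 TPM) and Cx3cr1 (16.7 TPM). Of 5 osteoclast markers Calcr had 0 counts, and the sum lay between 2.92 and 3.71 TPM in all libraries. The sum of 5 fibroblast markers was at most 0.0466 TPM. The part of these differences in the results below was not tested. In RNA from whole cultures, fewer cells of a type and less RNA per cell cannot be told apart. No label ties the libraries to separate cultures, so the spread behind each p-value is that of these libraries and may be technical.

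Among the 48 lysosomal genes the test called 1 as risen and 0 as fallen, and 47 missed the threshold. The gene that rose was Lipa, which encodes lysosomal acid lipase. Calls came from edgeR's quasi-likelihood test with Benjamini-Hochberg adjustment over 14634 genes and a threshold of 0.05. All 48 genes passed the filter on low counts. The share called was 2.08% of the lysosomal genes, against 2.02% of all tested genes called, 1.39% called as risen and 0.629% called as fallen, so the count of calls was near the background. At an unadjusted p under 0.05 there were 6 of the 48 lysosomal genes, against 1591 of the 14634 tested genes, or 10.9%. The median log2 fold change, 6OHA minus control, was 0.044 over the 48 genes and -0.0061 over all tested genes.

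Given only the spread of these libraries, the data also bound, gene by gene, how far most of these genes differed between the groups. No label ties the libraries to separate cultures, so these intervals may not cover the spread across cultures. The 95% interval of the fold change lay within 1.5-fold in either direction for 45 of 48 lysosomal genes, or 93.8%, against 64.3% of all tested genes, many of which had lower counts. The exceptions were Lipa, the acid sphingomyelinase gene Smpd1 and the weakly expressed cathepsin gene Ctsf. Ctsd lay inside narrowly, with an upper limit of 0.584 against the bound of 0.585 on the log2 scale. Both 6OHA libraries lay above both controls for 15 of the 48 genes, or 31.3%, against 18.7% of all tested genes. They lay below both controls for 5, or 10.4%, against 20.1%, and overlapped for 28. Groups without overlap in either direction made up 38.8% of all tested genes. Log2 fold changes were above 0 for 29 of the 48 genes, or 60.4%, against 48.6% of all tested genes. On log2(FPKM + 1) values both medians were lower, at -0.015 for the 48 genes and -0.041 for all tested genes, and the median of the 48 genes remained the higher.

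**Figure D1:**
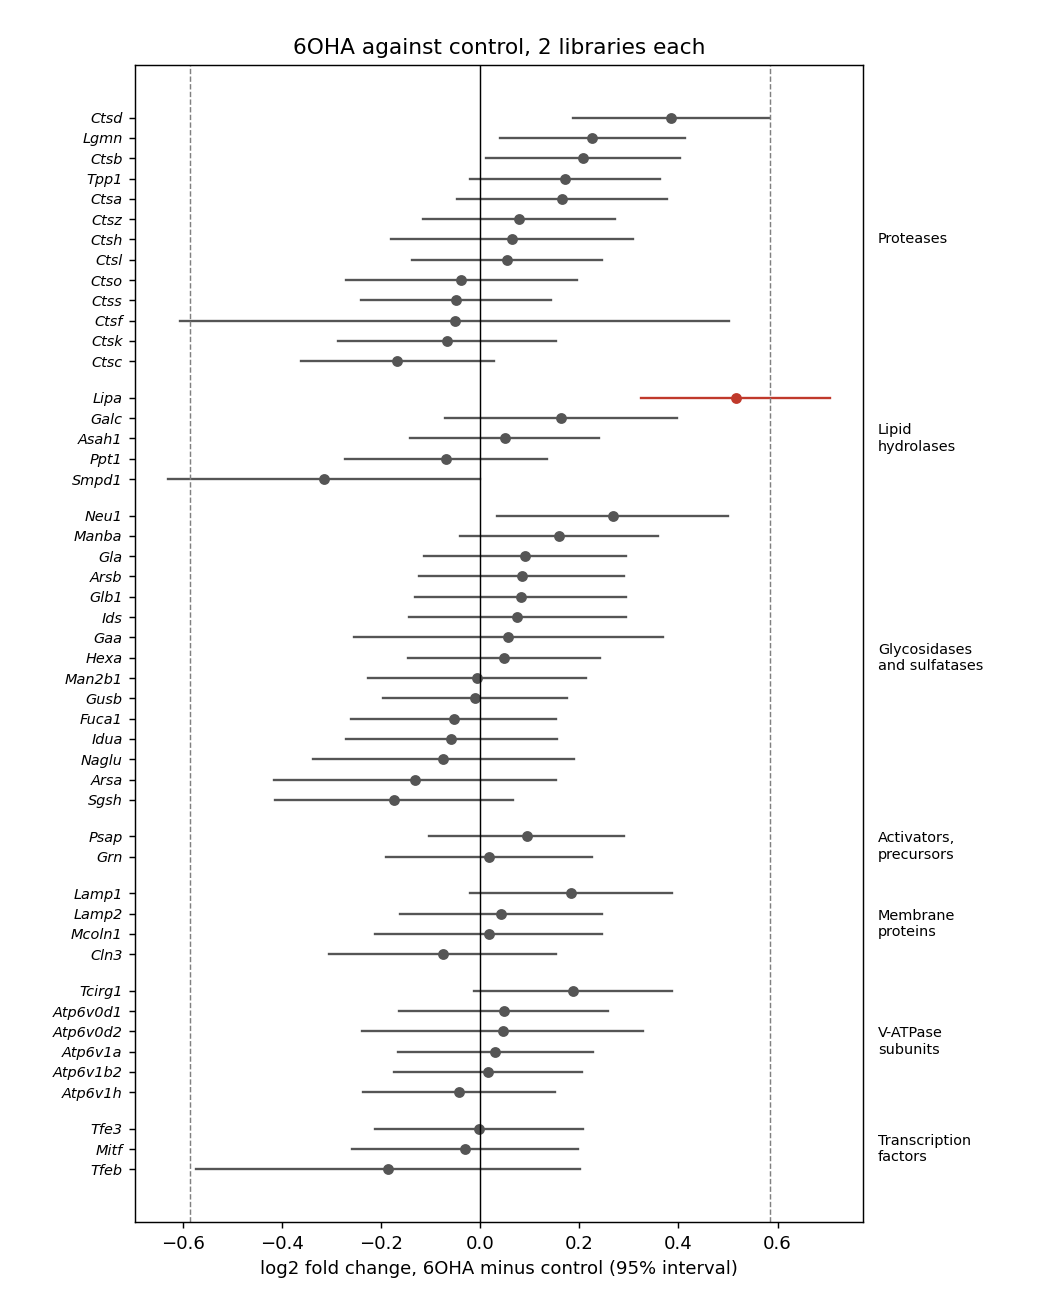
Log2 fold change of each lysosomal gene, 6OHA minus control, with its 95% interval from edgeR's quasi-likelihood fit (2 libraries in each group), grouped by role. Dashed lines mark a 1.5-fold change in either direction, and Lipa, in red, is the gene that passed the test.

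Lipa, Entrez gene 16889, lies on chromosome 19 from 34492316 to 34527474 on the minus strand of GRCm38, the assembly that mm10 names. Its product frees cholesterol and fatty acids from the esters that lipoproteins and engulfed membranes bring into the lysosome. Normalised read counts are given as CPM, counts relative to library sizes scaled by TMM. Those of Lipa were 487 and 462 in 6OHA replicates 1 and 3, against 333 and 329.9 in control replicates 1 and 2. The 6OHA libraries were both high and did not overlap the controls, which differed little from each other. Lipa was 1.43-fold higher, at 474 ± 17.5 against 332 ± 2.51 CPM (SD, n = 2), or 0.52 on the log2 scale (SE 0.086, 95% interval 0.33 to 0.71, adjusted p = 0.0103 by edgeR's quasi-likelihood test). Without 6OHA replicate 1 the log2 fold change was 0.48 and the adjusted p 0.0948. The adjusted p was also above the threshold with no filter on low counts (0.0560) and on log2(FPKM + 1) values (0.0672), where the log2 fold changes were 0.51 and 0.46.

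The promoter window of Lipa is shown because this was the gene that rose. It runs from 250 bases before to 50 bases after the start site, is given 5′ to 3′ on the strand of the gene from RefSeq on GRCm38.p6, and holds no E-box, which would stand in capitals.
Lipa, chr19:34527425-34527724, minus strand: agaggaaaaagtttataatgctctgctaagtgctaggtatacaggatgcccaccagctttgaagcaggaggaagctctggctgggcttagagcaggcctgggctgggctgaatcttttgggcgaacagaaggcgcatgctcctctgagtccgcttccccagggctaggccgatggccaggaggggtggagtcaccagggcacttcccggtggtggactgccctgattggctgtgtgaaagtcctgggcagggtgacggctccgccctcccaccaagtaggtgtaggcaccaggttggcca
Windows of 42 of the 48 genes were found, 53 windows in all. The letters AGGTCA, the core site of many nuclear receptors, searched on both strands, were in 22.6% of the 53 windows and 16.3% of the 32851 windows of all genes, and the Lipa window did not hold them. No match says only that these letters are not in this window.

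Among the proteases, 0 of 13 genes passed the test, and log2 fold changes ran from -0.17 for Ctsc to 0.39 for Ctsd. Ctsd encodes cathepsin D, the main aspartic protease of the lysosome. Its level was 6089 and 6247 CPM in 6OHA replicates 1 and 3, against 4577 and 4865 CPM in control replicates 1 and 2. Both 6OHA libraries lay above both controls, by more than the libraries of a group differed from each other. The log2 fold change was 0.39 (SE 0.090, 95% interval 0.19 to 0.58) and the adjusted p 0.0603 by edgeR's quasi-likelihood test, just above the threshold. Other tests called it, with an adjusted p of 0.000912 by the DESeq2 test, 0.0422 by limma-voom and 0.00466 in edgeR with a GC trend per library, and so did edgeR without control replicate 2 (0.0461). The other 10 alternatives did not, with adjusted p from 0.0568 with DESeq2 size factors to 0.388 on log2(FPKM + 1) values. Ctsd shares 33.2% of its distinct 31-base transcript stretches with transcripts of other genes, most often with Gm49369. Gm49369 is an annotated transcript that overlaps Ctsd on the same strand and has no row of its own in the table. The origin of the Ctsd reads is uncertain to that extent.

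Ctsd, Entrez gene 13033, lies on chromosome 7 from 142375910 to 142387827. Its promoter window is shown for comparison with that of Lipa, since it has the second largest log2 fold change of the 48 genes. It holds 2 E-boxes, in capitals. Unlike the Lipa window, it also holds the letters AGGTCA, read on the other strand.
Ctsd, chr7:142387778-142388077, minus strand: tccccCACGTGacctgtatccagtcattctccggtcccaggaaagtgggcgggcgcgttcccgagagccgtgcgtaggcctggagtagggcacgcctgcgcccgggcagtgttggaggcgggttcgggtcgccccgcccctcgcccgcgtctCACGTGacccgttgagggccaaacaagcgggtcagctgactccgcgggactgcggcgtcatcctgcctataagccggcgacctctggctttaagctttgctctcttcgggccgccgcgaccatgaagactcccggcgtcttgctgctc
The first base of the E-box cores lies 245 and 98 bases before the start site.

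Lgmn encodes legumain, an asparagine-specific protease that processes cathepsins. It measured 576 and 587 CPM in 6OHA against 491 and 503 CPM in control, and the groups did not overlap (log2 fold change 0.23, SE 0.084, adjusted p = 0.319 by edgeR's quasi-likelihood test). Ctsb, the gene of the cysteine protease cathepsin B, measured 4733 and 4715 CPM in 6OHA against 3972 and 4208 CPM in control. Its log2 fold change was 0.21 (SE 0.088, adjusted p = 0.417), again without overlap of the groups. Tpp1, a tripeptidyl peptidase gene, Ctsa, the gene of the protective protein of galactosidase and neuraminidase, and Ctsz had log2 fold changes of 0.17, 0.16 and 0.079, also without overlap. For Ctsc, the gene of the dipeptidyl peptidase that activates granule serine proteases, the direction was the opposite. It measured 1268 and 1178 CPM in 6OHA against 1399 and 1348 CPM in control (a log2 difference of -0.17, SE 0.088, adjusted p = 0.560). Ctss, the gene of cathepsin S of the antigen presentation pathway, measured 2449 and 2373 CPM in 6OHA against 2542 and 2444 CPM in control, with overlap of the groups (log2 fold change -0.048, SE 0.086, adjusted p = 0.939). The groups also overlapped for Ctsf, Ctsh, Ctsk, Ctsl and Ctso, whose log2 fold changes lay between -0.067 and 0.065. Ctsl shares 7.68% of its 31-base stretches with transcripts of other genes, most often with Gm49230, which overlaps it on the same strand.

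Of the 5 lipid hydrolases, Smpd1, which encodes acid sphingomyelinase, stood at the other end from Lipa. It measured 28.8 and 33.1 CPM in 6OHA against 33.4 and 43.8 CPM in control. The groups came close to each other, and the control libraries differed by more than the groups did. Its log2 fold change of -0.31 (SE 0.14, 95% interval -0.63 to -0.00064) was the lowest of the 48 genes and did not pass (adjusted p = 0.458). Galc, the gene of the enzyme that cleaves myelin galactosylceramide, measured 38.6 and 38.7 CPM in 6OHA against 35.9 and 33.1 CPM in control. It did not pass either, at 0.16 on the log2 scale (SE 0.11, adjusted p = 0.692). The acid ceramidase gene Asah1 and the palmitoyl thioesterase gene Ppt1 had log2 fold changes of 0.049 and -0.069, with overlap of the groups.

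**Figure D2:**
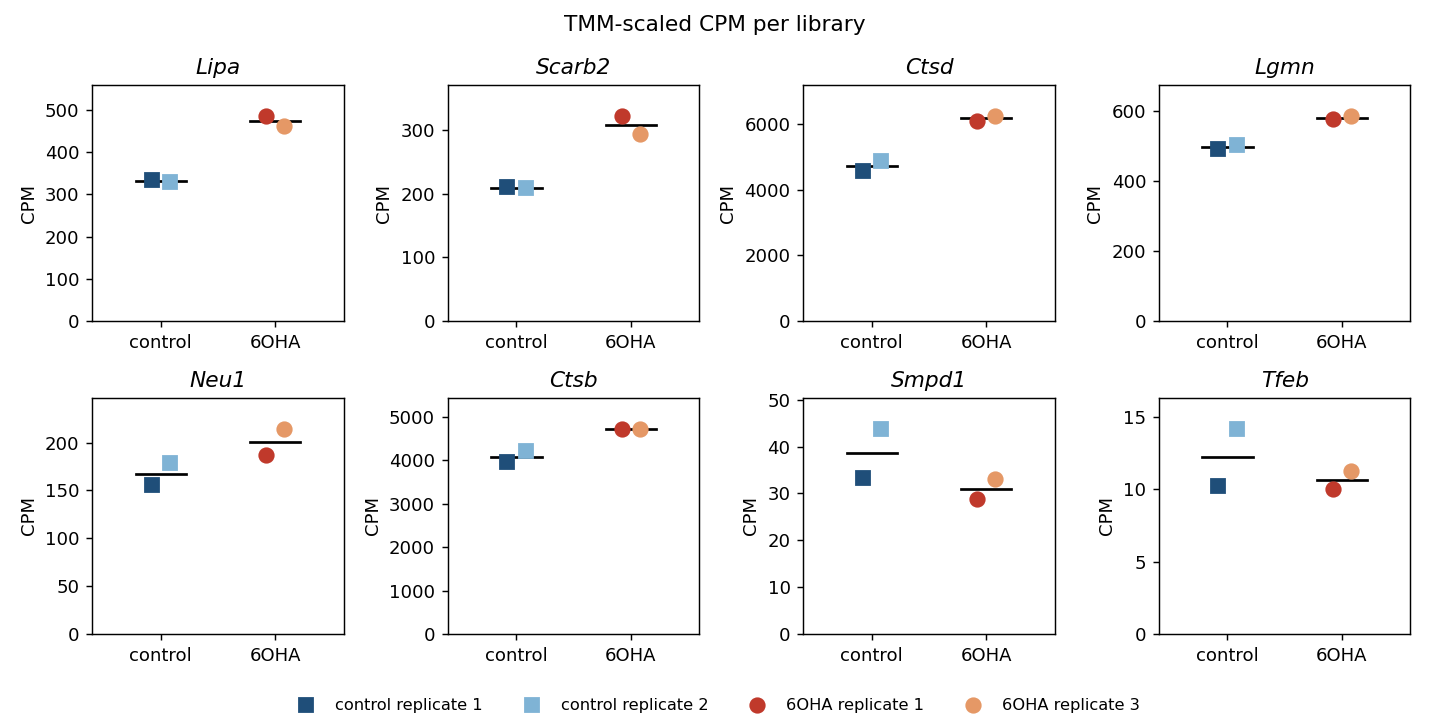
CPM after TMM scaling in each of the 4 libraries for 8 genes, with the mean of each group as a black line and axes from 0. The groups are apart for Lipa, Scarb2, Ctsd, Lgmn, Neu1 and Ctsb, they nearly meet for Smpd1, and they overlap for Tfeb.

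Of the 15 glycosidases and sulfatases, 0 passed the test, with a median log2 fold change of 0.048 and a range from -0.17 for Sgsh to 0.27 for Neu1. Neu1, which encodes the lysosomal sialidase, measured 187 and 214 CPM in 6OHA against 156 and 178 CPM in control. Replicate 1 was the lower library in both groups, and the groups did not overlap (log2 fold change 0.27, SE 0.11, adjusted p = 0.363). Manba, the gene of beta-mannosidase, was at 157 and 160.1 CPM in 6OHA against 147 and 137 CPM in control, or 0.16 higher on the log2 scale (SE 0.090, adjusted p = 0.614). The arylsulfatase B gene Arsb and the beta-galactosidase gene Glb1 lay higher in both 6OHA libraries by less than 0.09 on the log2 scale. The heparan sulfatase gene Sgsh and the iduronidase gene Idua lay lower in both, with -0.17 for Sgsh (adjusted p = 0.677) and -0.058 for Idua (adjusted p = 0.931) on the log2 scale. For the other 9 genes the groups overlapped. These were Arsa, Fuca1, Gaa, Gla, Gusb, Hexa, Ids, Man2b1 and Naglu, with log2 fold changes from -0.13 to 0.091. Gusb, the beta-glucuronidase gene, was the steadiest of the abundant genes, at 1126, 1137, 1137 and 1143 CPM in 6OHA replicates 1 and 3 and control replicates 1 and 2. Gaa, the gene of the enzyme that degrades glycogen, ranged from 199 to 267 CPM. Its replicate 1 libraries were low in both groups, so its groups overlapped while its libraries differed by up to 0.41 on the log2 scale within a group.

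Psap encodes prosaposin, the precursor of the saposins that present lipids to the hydrolases, and Grn encodes progranulin, a lysosomal protein whose loss causes neurodegeneration in humans. Psap measured 3403 and 3668 CPM in 6OHA against 3352 and 3275 CPM in control (a log2 difference of 0.094, SE 0.089, adjusted p = 0.838). Grn measured 2769 and 2868 CPM in 6OHA against 2617 and 2951 CPM in control (a log2 difference of 0.018, SE 0.094, adjusted p = 0.979). Neither passed, and the groups overlapped for Grn.

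The 4 membrane protein genes did not pass. Lamp1, a main glycoprotein of the lysosomal membrane, measured 2170 and 2194 CPM in 6OHA against 1809 and 2034 CPM in control, without overlap (log2 fold change 0.18, SE 0.092, adjusted p = 0.531). Its relative Lamp2, the calcium channel gene Mcoln1 and Cln3, mutated in juvenile Batten disease, had overlapping groups and log2 fold changes of 0.043, 0.017 and -0.076.

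Of the 6 V-ATPase genes, 0 passed. Tcirg1, the a3 subunit of the membrane sector, measured 415 and 452 CPM in 6OHA against 370.3 and 391 CPM in control and had the highest log2 fold change of these, 0.19 (SE 0.090, adjusted p = 0.501). Atp6v1a, the gene of the catalytic A subunit, and Atp6v1b2, that of a B subunit of the same sector, were at 0.031 and 0.016 on that scale, the regulatory subunit gene Atp6v1h, lower in both 6OHA libraries, at -0.043, and the d subunit genes Atp6v0d1 and Atp6v0d2 at 0.047 and 0.045. Per transcript length, Atp6v0d1 exceeded Atp6v0d2, the form that osteoclasts need, by 6.15 and 7.65 times in TPM in 6OHA and by 5.99 and 7.76 times in control. The ratio was lower in replicate 1 of both groups.

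The genes of the transcription factors that regulate lysosomal genes did not pass. Tfeb measured 10.00 and 11.3 CPM in 6OHA against 10.2 and 14.2 CPM in control. The control libraries differed more from each other than the groups did, and the log2 fold change was -0.19 (SE 0.18, 95% interval -0.57 to 0.20, adjusted p = 0.835). Tfe3 measured 115 and 120.3 CPM in 6OHA against 112 and 123 CPM in control (a log2 difference of -0.0019, SE 0.095, adjusted p = 0.998). Mitf measured 38.5 and 37.4 CPM in 6OHA against 39.6 and 37.8 CPM in control (a log2 difference of -0.031, SE 0.10, adjusted p = 0.970). All 3 had overlapping groups. In TPM, which allows levels of different genes to be compared, the order was Tfe3, Mitf and Tfeb in all 4 libraries. Tfe3 was 6.26 to 8.43 times as high as Tfeb, and Mitf 1.27 to 1.87 times. These proteins are regulated largely by leaving or entering the nucleus, which RNA levels do not show.

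E-boxes were found in some of the lysosomal genes. The letters CACGTG, which read the same on both strands, were in the promoter windows of 16 of the 42 genes with a window, or 38.1%, against 8.09% of the 27025 genes with a window in the table. A gene with more than 1 window was counted if any of them held the letters. Counted by window, the shares were 30.2% of 53 and 7.15% of 32851. The longer form TCACGTG, which contains the E-box and was searched on both strands, was in 33.3% of these 42 genes and 4.29% of all genes. There were 24 E-boxes, of which 19 began within 150 bases before the start site. The stretches below are those of the genes with more than 1 E-box other than Ctsd, from 10 bases before the first core to 10 bases after the last, 5′ to 3′ on the strand of the gene in GRCm38.p6, with the cores in capitals.
Lamp1, chr8:13159090-13159161, plus strand: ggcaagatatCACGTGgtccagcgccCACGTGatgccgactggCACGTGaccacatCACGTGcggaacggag
Ctsa, chr2:164833751-164833793, plus strand: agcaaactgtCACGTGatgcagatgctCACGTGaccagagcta
Mcoln1, chr8:3500438-3500489, plus strand: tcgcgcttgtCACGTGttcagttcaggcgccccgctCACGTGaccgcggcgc
Cln3, chr7:126583342-126583395, minus strand: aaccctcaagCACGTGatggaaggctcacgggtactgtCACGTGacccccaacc
Gla, chrX:134601184-134601242, minus strand: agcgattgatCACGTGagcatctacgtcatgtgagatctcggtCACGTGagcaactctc
Lamp1 had 4 cores within its stretch of 72 bases, and the other 4 genes had 2 each. The cores of Ctsa lie around the start site of their window, the first beginning 12 bases before it and the second 5 bases after. That start site lies inside the gene, which begins at 164832872. The window of Cln3 also has its start site inside the gene, which begins at 126585817 on the minus strand.

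Genes with and without an E-box overlapped in their log2 fold changes, 6OHA minus control. The 16 genes with one had a median log2 fold change of 0.051 and a range from -0.17 to 0.39, and 0 passed the test. The 26 genes with a window but no E-box had a median of 0.0079 and a range from -0.31 to 0.52, and Lipa was among them. The 6 genes without a window had a median of 0.047. These medians are descriptions, and their difference was not tested.

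**Figure D3:**
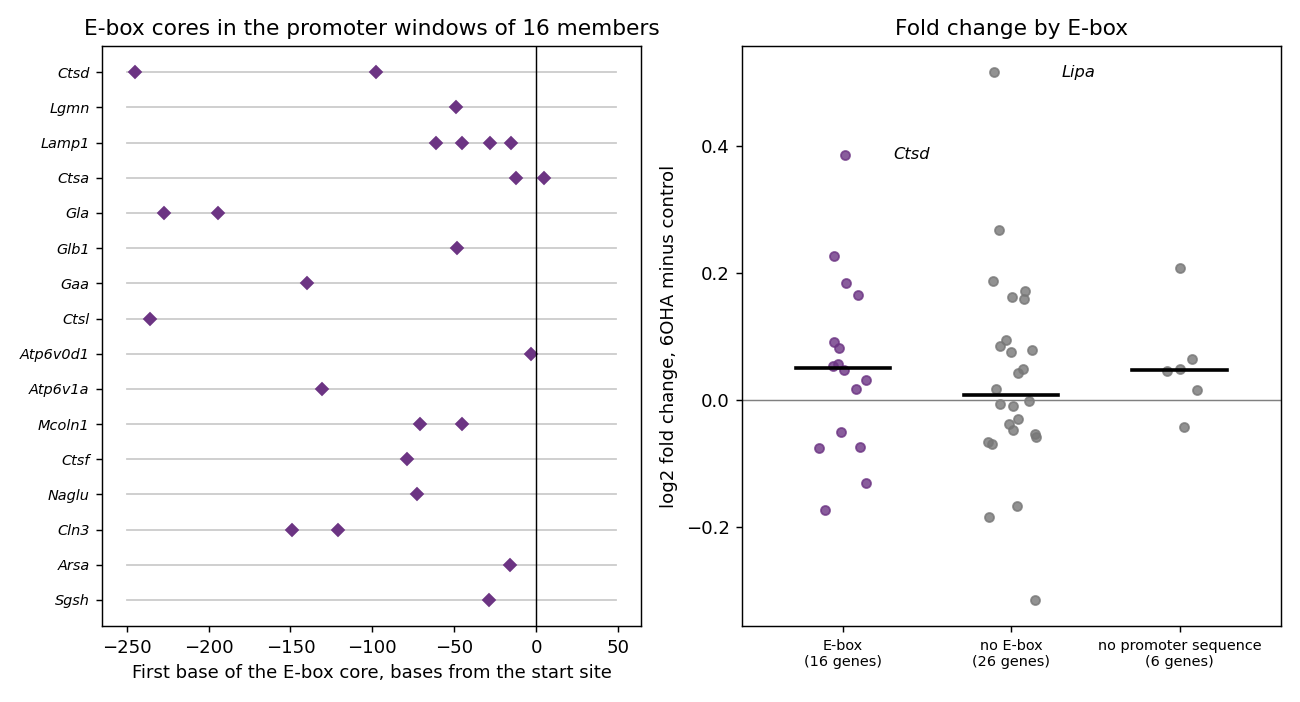
Left, the first base of each E-box core (CACGTG) relative to the start site in the promoter windows of the 16 genes that hold one, ordered by log2 fold change. Right, log2 fold change of the 48 genes by presence of an E-box, with 1 point per gene and the median as a bar, where Ctsd leads the genes with an E-box and Lipa those without.

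In these cells the lysosomal genes were abundant. Together they took 3.23 and 3.31% of all TPM in 6OHA replicates 1 and 3 and 2.99 and 3.02% in control replicates 1 and 2. The sums were 32309 and 33099 TPM against 29904 and 30214 TPM, and the groups did not overlap. Ctsd accounted for 58.9% of the difference between the group means of these sums. Without Ctsd the sums were 25549 and 26148 TPM in 6OHA against 24680 and 24843 TPM in control. These sums include Ctsa, whose mean was 244 TPM higher in 6OHA. Ctsa was 1.24-fold higher in TPM but 1.12-fold higher in the fit on counts. With 2 libraries in each group an exact permutation test could not go below p = 0.333.

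Levels spanned a wide range, from Ctsd at 6760 and 6951 TPM in 6OHA and 5224 and 5371 TPM in control to Ctsf at 2.53 and 2.54 TPM in 6OHA and 2.29 and 3.00 TPM in control. On average over the 4 libraries 8 genes reached at least 1000 TPM, 20 lay from 100 to 1000 TPM, 19 from 10 to 100 TPM and 1 lower. The most abundant were Ctsd, Ctss, Psap, Grn and Ctsz, which made up between 57.4 and 58.2% of the summed TPM of the 48 genes in the 4 libraries. Psap and Grn, at means of 2773 and 2770 TPM, did not differ beyond their spread. Proteases made up 57.7 and 57.3% of the summed TPM in 6OHA and 55.7 and 55.6% in control, and the transcription factors between 0.318 and 0.363%. Ctsd alone made up 20.9 and 21.0% in 6OHA and 17.5 and 17.8% in control. The higher protease share in 6OHA did not extend to the proteases other than Ctsd.

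**Figure D4:**
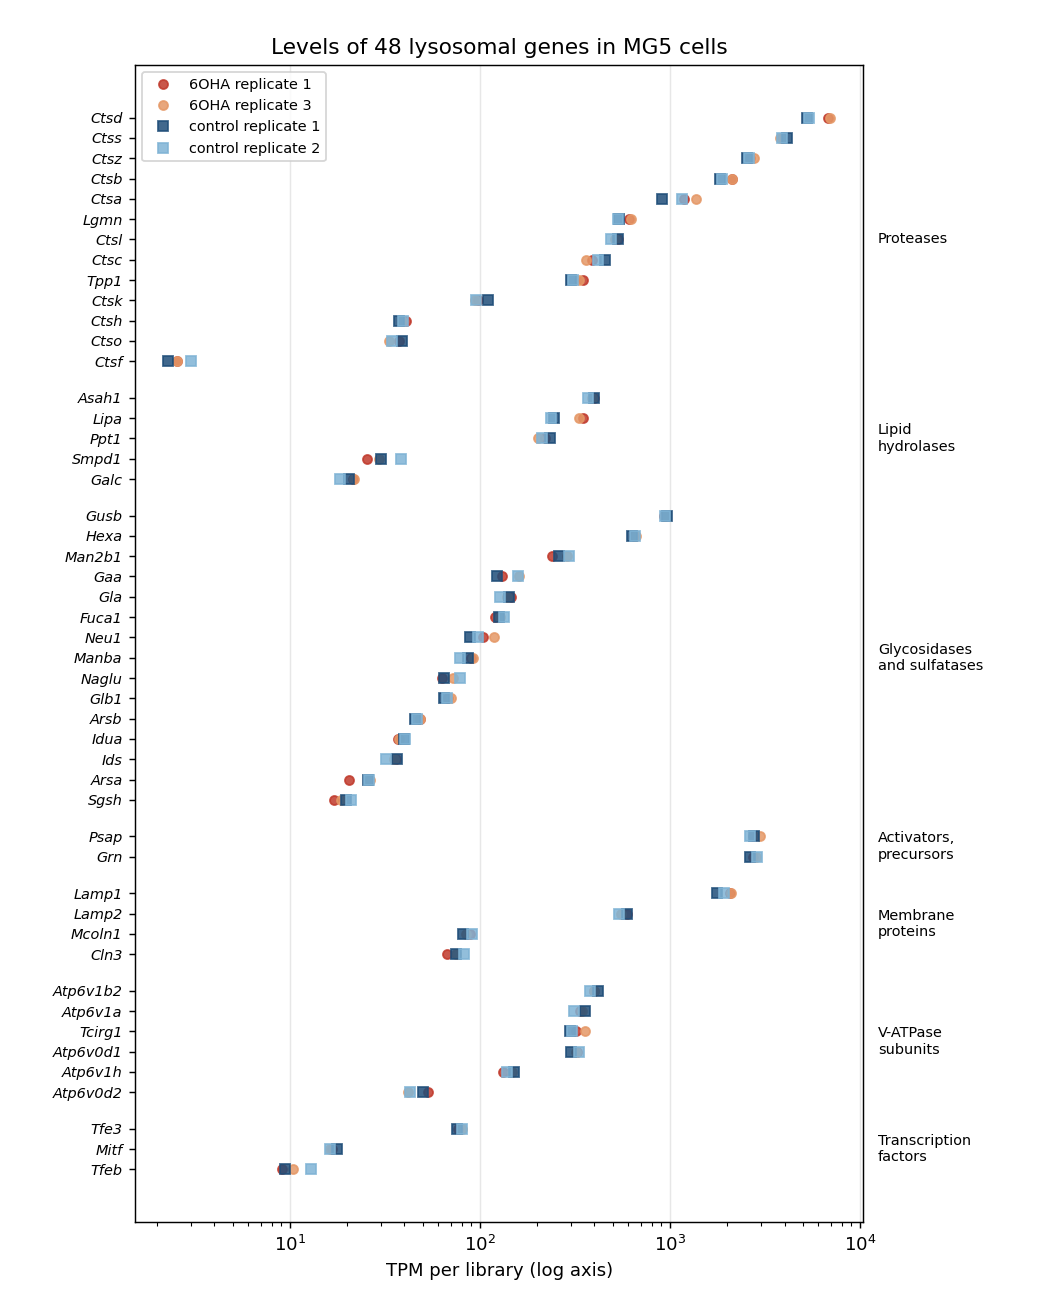
TPM of the 48 lysosomal genes in each library on a log axis, grouped by role and ordered by mean level, with circles for 6OHA and squares for control. For most genes the 4 libraries lie close together compared with the distance between genes.

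The spread between libraries of a group followed the GC content of the transcripts. Across the 48 genes, the log2 difference of 6OHA replicate 1 minus replicate 3 had a correlation with GC content of r = -0.75 (Spearman's rho = -0.78), and that of control replicate 1 minus replicate 2 had r = -0.79 (rho = -0.78). Over the 13660 tested genes with a GC value the relations were weaker, at r = -0.23 (rho = -0.44) and r = -0.36 (rho = -0.53). These are descriptions across genes measured in the same libraries, not independent points. The log2 fold change between the groups had r = -0.11 with GC content. GC-rich transcripts such as Tfeb, Gaa, Naglu and Smpd1 read lower in replicate 1 of both groups. For 34 of the 48 genes the larger of the 2 replicate differences exceeded the log2 fold change. Over all tested genes this share was not counted, and the median log2 fold change was 0.12 in size. The median replicate differences there were 0.13 in size in 6OHA and 0.18 in control. For the 48 genes these medians were 0.072, 0.066 and 0.12. With a GC trend per library as an offset in the edgeR fit, 4 of the 48 genes rose, or 8.33%, against 3.65% of the 13660 genes tested. These were Lipa (log2 fold change 0.52, adjusted p = 0.000208), Ctsd (0.39, adjusted p = 0.00466), Neu1 (0.29, adjusted p = 0.00987) and Lgmn (0.22, adjusted p = 0.0455), and 0 fell. The DESeq2 test and limma-voom each called Lipa and Ctsd as risen, against 2.02% and 1.31% of all genes tested, as did edgeR without control replicate 2, against 2.09%. None of the 48 genes rose without 6OHA replicate 1, with no filter on low counts, or on log2(FPKM + 1) or log2(FPKM + 0.1) values, where 1.26%, 0.451%, 0.69% and 0.745% of genes did.

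**Figure D5:**
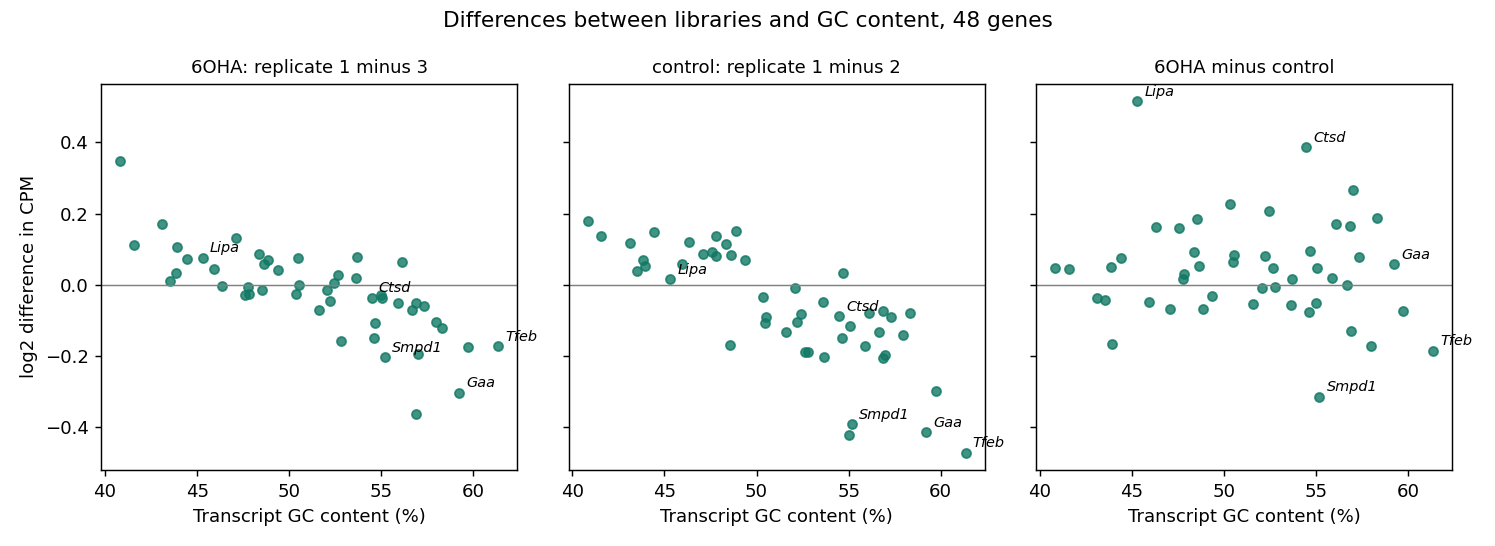
Log2 differences in CPM against transcript GC content for the 48 genes, between the 6OHA libraries (left), between the control libraries (middle) and between the groups (right). The points fall with GC content between replicates and show no such slope between the groups.

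Other genes of the lysosome were compared from 4 lists of genes that are not among the 48. Of 52 tested genes of further lysosomal enzymes, membrane proteins and sorting receptors, 1 rose and 0 fell, with a median log2 fold change of 0.058 and a range from -0.20 to 0.70. The highest value was that of the sorting receptor gene Sort1, with an SE of 0.44 and an adjusted p of 0.677 by edgeR's quasi-likelihood test. The gene that rose was Scarb2, which encodes LIMP-2, the membrane receptor that carries glucocerebrosidase to lysosomes. Scarb2 (Entrez gene 12492, chromosome 5 from 92441311 to 92505657) measured 322 and 294 CPM in 6OHA against 211 and 208 CPM in control. It was 1.47-fold higher, without overlap of the groups (log2 fold change 0.56, SE 0.090, adjusted p = 0.00874 by edgeR's quasi-likelihood test). Like that of Lipa, its call was lost without 6OHA replicate 1 (adjusted p = 0.0878), with no filter (0.0618) and on log2(FPKM + 1) values (0.0672). Of 17 further genes of the V-ATPase and its assembly 0 passed, with a median of 0.021 and a range from -0.12 to 0.20. Of 26 genes of mTORC1 signalling at the lysosome 0 passed, with a median of -0.020 and a range from -0.18 to 0.31. Of 31 autophagy genes 0 passed, with a median of 0.014 and a range from -0.31 to 0.23. At an unadjusted p under 0.05 these lists held 3 of 52, 1 of 17, 1 of 26 and 0 of 31 tested genes. The first count includes Scarb2, and the share over all tested genes was 10.9%.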

How the data were processed

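The table held read counts per gene, deposited without normalization per the file headers. FPKM values, scaled by transcript length and library size, and TPM values, scaled to a fixed sum, were computed by the authors and deposited beside them, per the file headers. Per the submitters' processing notes, reads were handled with HISAT2 2.1.0, StringTie 2.1.3b, Trimmomatic 0.38, SAMtools 1.9, bcl2fastq 2.20.0 and Bowtie2, and mm10 was the build. How reads were counted, and whether strand was used, is not given in the sources used here. Libraries were made with a stranded poly-A kit, per the labels' protocols. Of the 48 genes, 15 have exons that overlap exons of another gene on the opposite strand.

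The low-count filter was filterByExpr (edgeR 4.0.16), and TMM gave the scaling. Groups were compared by edgeR's quasi-likelihood test on a model of group alone, with Benjamini-Hochberg adjustment at 0.05. The fit was also run on counts simulated from its own estimates of spread, without a GC trend. Such counts cannot show whether the spread of these libraries covers that across cultures. CPM values use TMM-scaled library sizes over the tested genes. The SE is the log2 fold change over the root of the F statistic. Alternatives used DESeq2 1.42.0, limma 3.58.1 (voom, and log2 FPKM with 1 or 0.1 added or log2 TPM with 1 added), other scalings and filters, left-out libraries, and a lowess trend on transcript GC content per library. Transcripts of GENCODE M21 gave the GC content and the 31-base stretches that genes share, with GC values for 93.3% of tested genes. Promoter sequences and positions came from RefSeq on GRCm38.p6. R 4.3.3 and Python 3.11.15 were used.

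The 48 genes, the other lists, the tests and the alternatives were chosen with earlier results of these data known. Any of the 48 genes could be named. Full statistics were set for those past the threshold, the transcription factors, the 3 most abundant and the 3 with the smallest p among the rest, and of the other lists the genes past the threshold were named. Beyond these, statistics of further genes among the 48, such as Ctsb and Smpd1, are given. Sort1 and Slc11a1 of the other lists are named although they did not pass the reported test. A lysosomal list name that repeats Scarb2 was dropped. The bexarotene libraries are not used here.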

Additional observations from a re-analysis of the deposited data

How the results depend on the processing

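Lipa kept its direction under all 14 alternatives, with log2 fold changes from 0.46 to 0.56, and Scarb2 likewise from 0.49 to 0.62. With 1 library left out, the spread of its group was taken from the other group. Of the 48 genes, 2 passed under the DESeq2 test and limma-voom, 4 with a GC trend per library, 0 with no filter, 0 on log2(FPKM + 1) and log2(FPKM + 0.1) values, and 0 to 2 with 1 library left out. Of the other lysosomal lists, 2 genes passed under the DESeq2 test, 4 with a GC trend, 0 with no filter and on both FPKM scales, and 1 to 2 with 1 library left out. Over all genes, 295 of 14634 passed in the reported test (203 rose and 92 fell), and 430 under the DESeq2 test. The count was 120 with no filter (96 and 24), 135 on log2(FPKM + 1) (101 and 34), 149 on log2(FPKM + 0.1) (109 and 40), 152 on log2(TPM + 1) (120 and 32), 833 with a GC trend (499 and 334), and 265 to 501 with 1 library left out (167 to 315 rose and 77 to 186 fell). With no filter 21286 genes were tested. The cause of the other differences was not tested.

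Sign changes occurred in 20 genes, none of which passed in any setting, and whose reported log2 fold changes were at most 0.19 in size. On log2(FPKM + 1) values these were Lamp2 (-0.018), Hexa (-0.0088), Asah1 (-0.0039), Grn (-0.030), Atp6v0d1 (-0.0038), Atp6v0d2 (-0.013), Atp6v1a (-0.022), Atp6v1b2 (-0.037) and Mcoln1 (-0.034), and on log2(FPKM + 0.1) values the same genes, with Asah1 at -0.0040. Tfe3 turned to 0.0012 with DESeq2 size factors, 0.0011 under the DESeq2 test, 0.0025 on log2(TPM + 1) values and 0.019 with a GC trend. With 1 library left out, log2 fold changes ran from -0.27 to 0.16 for Ctsf, -0.14 to 0.013 for Ctsk, -0.12 to 0.049 for Ctso, -0.025 to 0.11 for Lamp2, -0.13 to 0.28 for Gaa, -0.0079 to 0.11 for Hexa, -0.065 to 0.11 for Grn, -0.22 to 0.081 for Naglu, -0.32 to 0.038 for Arsa, -0.10 to 0.091 for Man2b1, -0.12 to 0.014 for Fuca1, -0.044 to 0.14 for Atp6v0d1, -0.13 to 0.21 for Atp6v0d2, -0.036 to 0.10 for Atp6v1a, -0.025 to 0.058 for Atp6v1b2, -0.081 to 0.12 for Mcoln1, -0.41 to 0.062 for Tfeb, -0.066 to 0.065 for Tfe3 and -0.064 to 0.0055 for Mitf. No paired analysis was possible because the groups share only replicate number 1.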

Other observations

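Slc11a1, which encodes a metal ion transporter of the phagosome and lysosome membrane and is on the list of further lysosomal genes, is named here after its values were seen. It measured 287 and 319 CPM in 6OHA against 194 and 240.4 CPM in control, without overlap of the groups, and did not pass (log2 fold change 0.48, SE 0.11, adjusted p = 0.0644 by edgeR's quasi-likelihood test). Replicate 1 was the lower library in both groups. It passed under the DESeq2 test (adjusted p = 0.00266), with a GC trend per library (0.000626), without 6OHA replicate 1 (0.0271) and without control replicate 2 (0.00357). Over the other alternatives its adjusted p ranged from 0.0529 to 0.278.

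For Ctsa the deposited FPKM did not track the deposited counts across libraries. The FPKM divided by the share of the unscaled total counts differed up to 1.23-fold between the 4 libraries, against at most 1.12-fold for each of the other 47 genes. Its FPKM was 489 and 562 in 6OHA against 381 and 493 in control, with control replicate 1 the lowest. Counts put that library at 1306 CPM beside 1506 CPM in control replicate 2. The cause was not tested.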
